A study of Mus musculus with 96 samples.

Results

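Lgr4, Lgr5 and Lgr6, the 3 receptors for R-spondins, were 3 of the 96 transcripts assayed in 96 single cells, and all 3 were chosen by gene family. The cells came from mouse uterus at postnatal day 7. The tissue was digested with type I collagenase, cells carrying CD326 (the Epcam protein, a surface marker of epithelium) were sorted one to a well, and each lysate was preamplified and read by EvaGreen quantitative PCR on a Fluidigm Biomark chip. There was 1 group, with no treatment, no second age and no control tissue. The labels name neither strain nor genotype and do not say how many animals gave the cells. Cells are therefore described here and not tested as replicates. No p-value is given. Intervals of shares are exact 95% binomial intervals (Clopper-Pearson), intervals of differences between shares are 95% Newcombe intervals, and both cover counting error only.

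R-spondins are secreted proteins that strengthen WNT signalling. When an R-spondin binds Lgr4, Lgr5 or Lgr6, the ubiquitin ligases Znrf3 and Rnf43 are kept from removing Frizzled receptors and their Lrp co-receptors from the cell surface, so the cell responds more strongly to WNT ligands. Lgr4 is broadly expressed in epithelia, Lgr5 is best known as a marker of intestinal crypt stem cells and is also found in the neonatal uterine epithelium from which glands form, and Lgr6 is best known from stem cells of the skin.

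A cycle threshold (Ct) is the PCR cycle at which product becomes visible, so a lower Ct means more template. A transcript was counted as detected when its Ct was below 28, and wells without a Ct carry the fill value 40. Of the 9216 values, 4320 (46.9%) were at the fill value. No recorded receptor Ct lay at or above 28, and the highest receptor values inside the limit were 26.45 for Lgr4, 24.70 for Lgr5 and 23.61 for Lgr6. A cell had a median of 54 of the 96 assays detected, with a range of 9 to 78. Epcam transcript was found in 74 of the 96 sorted cells. Gapdh, a reference gene, had a median Ct of 13.41, and 8 cells had a Gapdh Ct above 18 or none. One cell, number 67, had no value in the first 71 assays, which include the 3 receptors, and it counts among the cells without any.

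The receptor values were not spread evenly over the numbering of the cells, and the Lgr5 results below have to be read with this. The labels number the cells from 1 to 96. When the numbers are written in 8 runs of 12, places 11 and 12 stood apart in Lgr5, and places 1 and 2 in Gapdh. How these numbers relate to wells, sort order or animals is not stated in the labels. The pattern was noticed in the Lgr5 values, so the division into places 11 and 12 against places 1 to 10 was chosen after the data were seen.

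Lgr5 was found in 12 of the 16 cells at places 11 and 12 (75.0%, interval 47.6% to 92.7%) and in 8 of the 80 cells at places 1 to 10 (10.0%, 4.42% to 18.8%). Each of the places 11 and 12 held 6 Lgr5 cells, and no other place held more than 2. The Ct values did not overlap either. They ran from 15.01 through a median of 17.99 to 21.00 in the 12 cells at places 11 and 12, and from 21.32 through 23.22 to 24.70 in the 8 others. On the level scale used below, 28 minus Ct, in cycles, this is 10.09 ± 1.78 (SD, n = 12 cells) against 5.03 ± 1.26 (SD, n = 8 cells). Gapdh also had lower Ct values at places 11 and 12, with a median of 11.21 against 13.50 for the 79 cells with Gapdh at places 1 to 10, a smaller gap than that of Lgr5. The difference in share was 65.0 percentage points for Lgr5, the largest of the 96 assays. For comparison, 26 assays (27.1%) were at least 20 points more frequent at places 11 and 12, and 5 (5.21%) were at least 20 points less frequent.

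Lgr4 and Lgr6 varied with place in another way. Lgr4 was found in 16 of 16 cells at places 11 and 12 and in 62 of 80 (77.5%) elsewhere. Lgr6 was found in 8 of 8 cells at place 11 but in 3 of 8 at place 12, and in 46 of 80 (57.5%) elsewhere. At the low end, place 1 held 4 Lgr4 cells and 2 Lgr6 cells of 8, and place 2 held 4 and 1. Those were also the places with the least template, with a median Gapdh Ct of 16.81 and 15.79 and 6 of the 8 low-Gapdh cells. Whether the cells at places 11 and 12 differ in kind, in animal or in handling cannot be told apart.

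**Figure D1:**
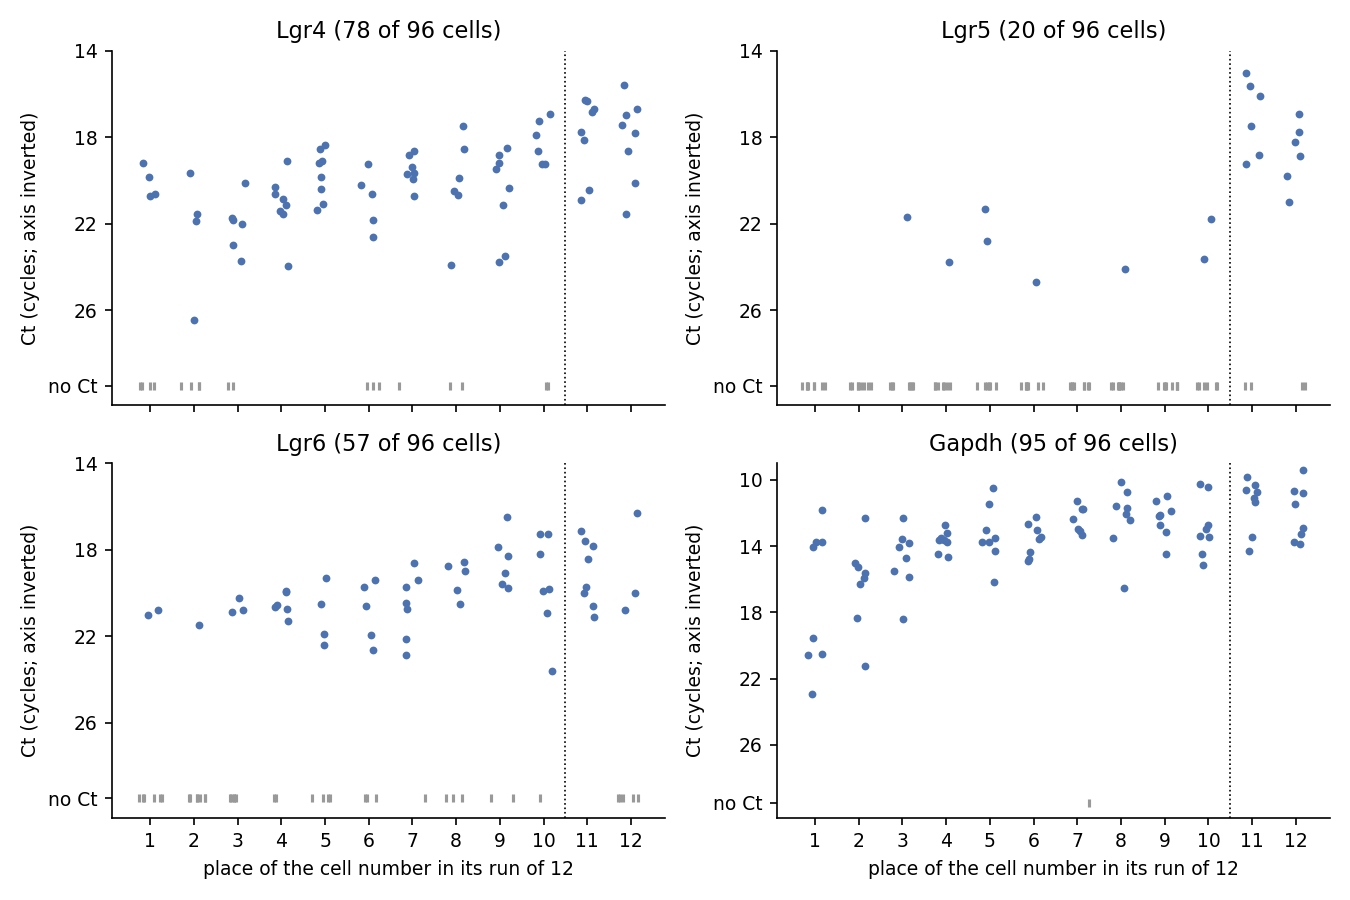
Ct of Lgr4, Lgr5, Lgr6 and Gapdh (cycles, inverted axis, so more template is higher) against the place of each cell's number in its run of 12. Each point is 1 cell, grey ticks are cells without a Ct, and the dotted line separates places 1 to 10 from 11 and 12. Lgr5 lies between 15.01 and 21.00 to the right of the line and between 21.32 and 24.70 to its left, and Gapdh Ct is highest at places 1 and 2.

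Among all 96 cells Lgr4 was the most frequent receptor and Lgr5 the least. Lgr4 (Entrez gene 107515) was detected in 78 cells (81.2%, interval 72.0% to 88.5%). Its Ct ran from 15.57 through a median of 19.87 to 26.45, and the next highest value was 23.98. Lgr6 (Entrez gene 329252) was detected in 57 cells (59.4%, 48.9% to 69.3%), with Ct values of 16.30 at the lowest, 19.97 at the median and 23.61 at the highest. Lgr5 (Entrez gene 14160) was detected in 20 cells (20.8%, 13.2% to 30.3%), with a lowest Ct of 15.01, a median of 19.53 and a highest of 24.70. The 3 intervals do not overlap, and the order Lgr4, Lgr6, Lgr5 stands also at places 1 to 10, but not at places 11 and 12, where Lgr5 (12 of 16) and Lgr6 (11 of 16) had nearly the same share. As background, 53 of the 96 assays (55.2%) reached a share of 50% of the cells, and Lgr4 and Lgr6 were among them.

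In the cells that had them, the receptors were at like Ct values. The mean level was 8.08 ± 2.05 cycles for Lgr4 (SD, n = 78 cells), 8.07 ± 2.99 for Lgr5 (n = 20) and 8.09 ± 1.58 for Lgr6 (n = 57). These means differ by far less than their spread, and levels of different assays can be compared only roughly, since primer efficiency was not measured. Lgr5 had the widest spread, and its mean joins the low-Ct cells of places 11 and 12 with the higher-Ct cells elsewhere.

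**Figure D2:**
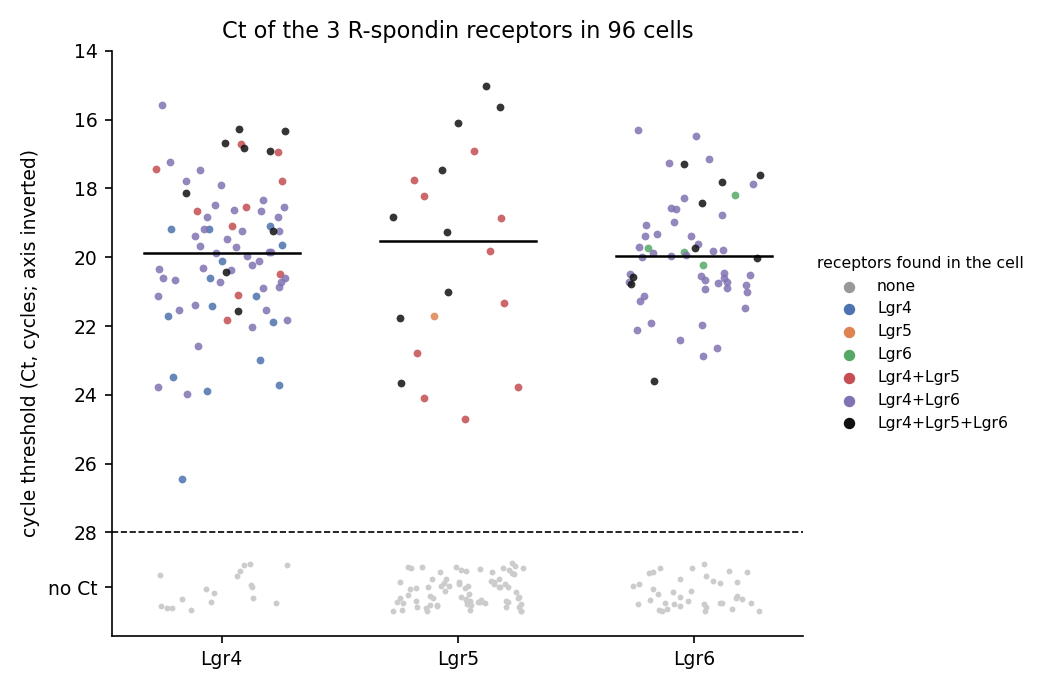
Ct of each receptor in each of 96 cells (cycles, inverted axis). Points are cells coloured by the receptors found in them, the black line is the median of the detecting cells, the dashed line is the detection limit of 28, and grey points are cells with no Ct. The medians lie at 19.87, 19.53 and 19.97, while the number of detecting cells falls from 78 for Lgr4 to 57 for Lgr6 and 20 for Lgr5.

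Most cells carried Lgr4 together with Lgr6. This pair without Lgr5 was the largest class, with 44 of 96 cells (45.8%). Lgr4 alone was found in 15 cells (15.6%), Lgr4 with Lgr5 in 10 (10.4%), all 3 receptors in 9 (9.38%), Lgr6 alone in 4 and Lgr5 alone in 1. Lgr5 with Lgr6 but without Lgr4 was found in 0 of 96 cells, and 3 counts, the limit that a 0 allows, would be 3.12% (exact upper limit 3.77%). No receptor was found in 13 cells (13.5%, interval 7.41% to 22.0%). Of these 13, 7 were low-Gapdh cells, and their median number of other assays was 22 of 93, against 53 in the cells with Lgr4 and Lgr6. At least 1 receptor was found in 83 cells (86.5%).

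The combinations were not spread evenly over the places. Of the 9 cells with all 3 receptors, 7 were at places 11 and 12, as were 5 of the 10 with Lgr4 and Lgr5 and 4 of the 44 with Lgr4 and Lgr6. The cells with Lgr4 alone and those without any receptor were all at places 1 to 10. Without places 11 and 12, all 3 receptors were found in 2.50% of cells.

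**Figure D3:**
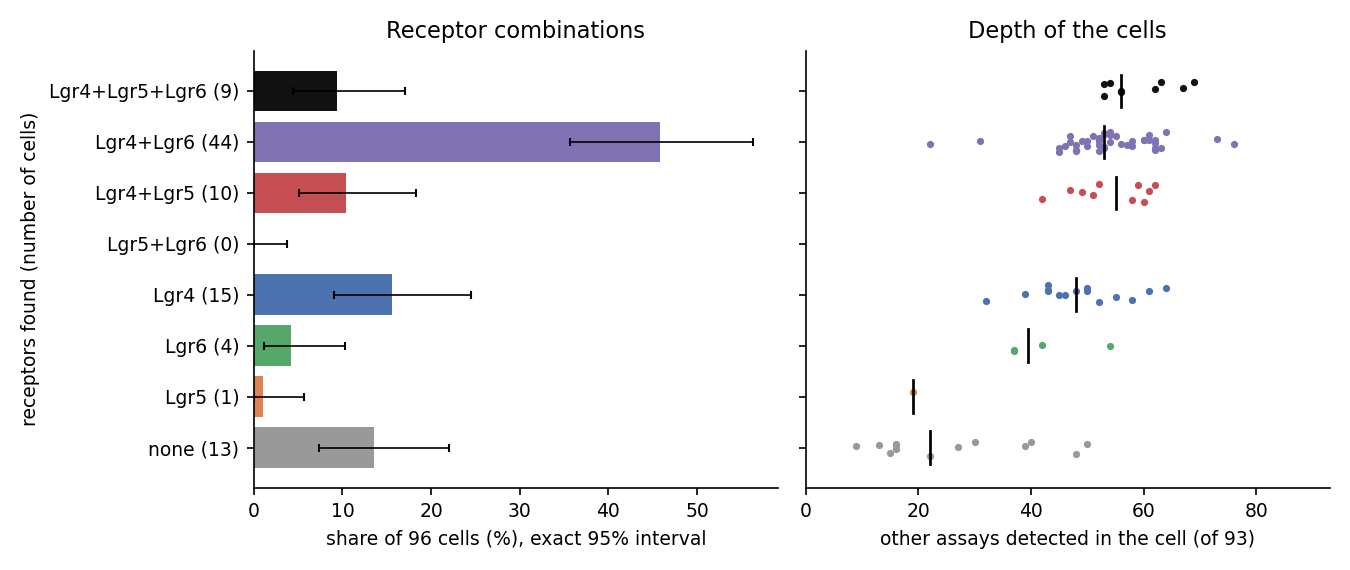
Left, share of the 96 cells (%) with each combination of receptors, with exact 95% intervals as bars. Right, number of the 93 other assays detected in each cell of that combination, with the median as a black line. The pair Lgr4 and Lgr6 holds 44 cells, and the 13 cells without a receptor have a median of 22 other assays.

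Lgr4 was present in nearly every cell that had another receptor. It was found in 19 of 20 Lgr5 cells (95.0%) and in 59 of 76 cells without Lgr5 (77.6%), a difference of 17.4 points with an interval of -2.85 to 28.7. It was found in 53 of 57 Lgr6 cells (93.0%) and in 25 of 39 without Lgr6 (64.1%), a difference of 28.9 points (12.5 to 45.1). That second difference fell to 12.3 points when the low-Gapdh cells were left out and to 9.52 without the cells with the fewest assays.

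Lgr5 and Lgr6 did not follow each other. Lgr5 was found in 9 of 57 Lgr6 cells (15.8%) and in 11 of 39 cells without Lgr6 (28.2%), a difference of -12.4 points with an interval (-29.6 to 4.01) that includes 0. The sign was the same within the division by place, with 7 of 11 against 5 of 5 at places 11 and 12 and 2 of 46 against 6 of 34 at places 1 to 10. Among the Lgr4 cells the counts were 9 of 53 against 10 of 25, a difference of -23.0 points (-43.8 to -2.39). Also among the Lgr4 cells, 17 of the 93 other assays (18.3%) were at least 20 points more frequent with Lgr5 and 6 (6.45%) less frequent.

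Within cells that had both, Lgr4 and Lgr6 differed by -0.31 ± 1.80 cycles (Ct of Lgr4 minus Ct of Lgr6, SD, n = 53 cells), and 32 of the 53 pairs lay within 1 cycle. Their Ct values had a Pearson r of 0.46 and a Spearman rho of 0.55 over these cells, and after a linear fit of both on Gapdh Ct r was 0.04 and rho 0.26. Lgr4 and Lgr5 had an r of 0.69 and a rho of 0.73 over 19 cells, and 0.48 and 0.50 after that fit. The points are cells of 1 sort that share the amount of template and the place in the numbering, so these values are descriptions.

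Each receptor was found more often where there was more Gapdh. In the 48 cells with the lower Gapdh Ct, Lgr4 was found in 46 (95.8%), Lgr6 in 36 (75.0%) and Lgr5 in 13 (27.1%). In the other 48 the counts were 32 (66.7%), 21 (43.8%) and 7 (14.6%). Of the 95 assays other than Gapdh, 42 (44.2%) were at least 20 points more frequent in the first 48, so the rise of Lgr4 and Lgr6 is shared by many transcripts. The Lgr5 difference was 12.5 points, with overlapping intervals (15.3% to 41.8% and 6.07% to 27.8%). Places 11 and 12, which hold 12 of the 20 Lgr5 cells, also had the lower Gapdh Ct, so this split does not separate place and Gapdh for Lgr5. By single place, the median Gapdh Ct was 11.89 at place 8, 12.13 at place 9, 10.91 at place 11 and 12.18 at place 12. Lgr5 was found there in 1, 0, 6 and 6 of 8 cells. The part of Gapdh in the Lgr5 difference by place was not tested. Receptor Ct rose with Gapdh Ct, with a Spearman rho of 0.73 for Lgr4 (n = 78 cells), 0.54 for Lgr5 (n = 20) and 0.57 for Lgr6 (n = 57), where the median over 77 assays was 0.55.

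Of a list of 18 genes of the WNT pathway, 8 were measured. They were the ligands Wnt7a and Wnt5a, the receptors Fzd4, Fzd7, Fzd9 and Fzd10, the transducer Ctnnb1 (beta-catenin) and the WNT target Myc. The file names the assays of Fzd4, Fzd9 and Fzd10 by their CD designations. Ctnnb1 (85 cells), Myc (85) and Fzd7 (87) were found in most cells, Fzd4 in 54 and Wnt7a in 52, and Wnt5a (40), Fzd9 (30) and Fzd10 (29) in fewer. R-spondins, Znrf3, Rnf43 and Lrp co-receptors were not analysed here.

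Fzd10 was found with Lgr5. It was detected in 15 of 20 Lgr5 cells (75.0%, interval 50.9% to 91.3%) and in 14 of 76 others (18.4%, 10.5% to 29.0%), a difference of 56.6 points and the largest of the 93 other assays. As background, 19 of the 93 assays (20.4%) were at least 20 points more frequent in Lgr5 cells and 3 (3.23%) at least 20 points less frequent. The Fzd10 difference was also seen within the division by place. It was 10 of 12 against 1 of 4 cells at places 11 and 12, and 5 of 8 (62.5%) against 13 of 72 (18.1%) at places 1 to 10, a difference of 44.4 points.

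Fzd9 went the other way. It was found in 2 of 20 Lgr5 cells (10.0%) and in 28 of 76 others (36.8%), 26.8 points fewer, and at places 1 to 10 in 1 of 8 against 27 of 72. In Lgr6 cells Fzd9 was more frequent, with 25 of 57 (43.9%) against 5 of 39 (12.8%), and at places 1 to 10 with 23 of 46 against 5 of 34. Among the 20 Lgr5 cells, 13 had Fzd10 without Fzd9, 2 had both, 5 had neither and none had Fzd9 alone.

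By Lgr5 status 2 of the 8 WNT genes were at least 20 points more frequent (Fzd10 and Wnt7a), beside 20.4% of all 93 assays. A further 1 (Fzd9) was at least 20 points less frequent, beside 3.23%. The median over the 8 was 8.16 points against 5.53 over all 93 assays. Wnt7a, the WNT ligand made by uterine epithelium, was present in 16 of 20 Lgr5 cells (80.0%) and 36 of 76 others (47.4%). Most of that difference lay at places 11 and 12, with 12 of 12 against 1 of 4, while at places 1 to 10 it was 4 of 8 against 35 of 72, or 1.39 points. By Lgr6 status 2 of 8 were at least 20 points more frequent (Fzd9 and Fzd4), a share no higher than the 26.9% over all assays. None was less frequent by that step, and the median was 14.0 points against 10.9 over all assays.

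**Figure D4:**
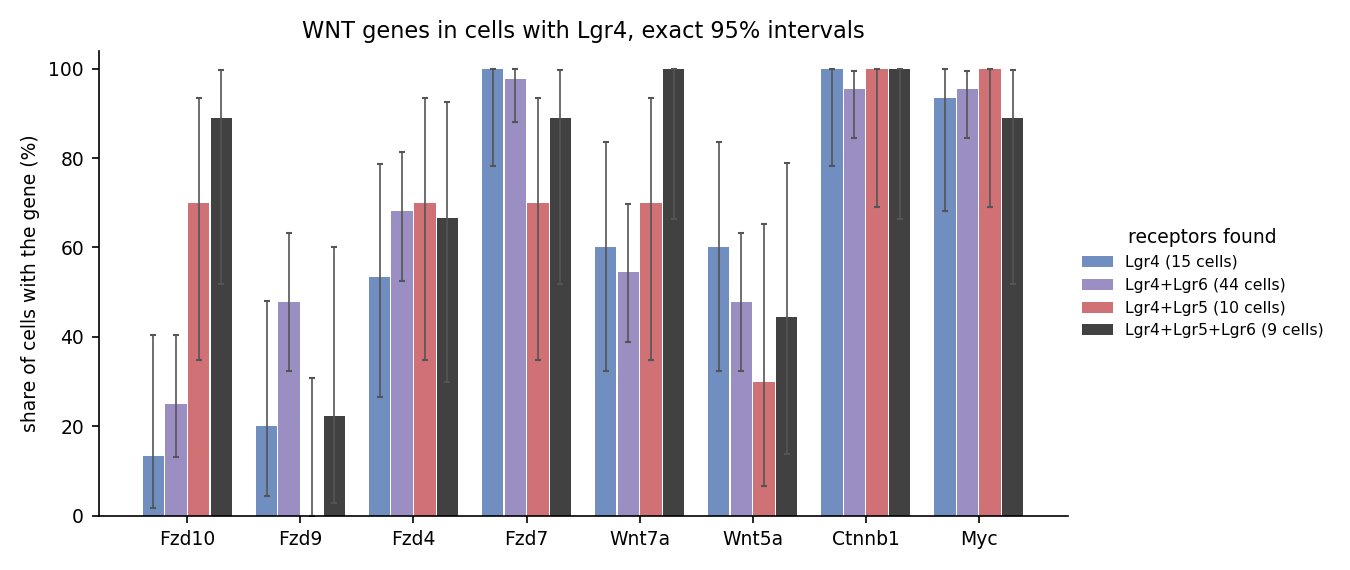
Share of cells (%) with each of the 8 measured WNT genes, in the 4 classes of cells with Lgr4, with exact 95% intervals as error bars. Fzd10 was found in 7 of 10 cells with Lgr4 and Lgr5 and 8 of 9 with all 3 receptors, against 11 of 44 with Lgr4 and Lgr6 and 2 of 15 with Lgr4 alone. Fzd9 was found in 0, 2, 21 and 3 of the same classes.

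The genes most tied to Lgr5 in all 96 cells were less so at places 1 to 10. Once each level was fitted linearly to how many other assays a cell had, the 5 assays with the highest correlation to the Lgr5 level were Pax2 (r 0.67), Fzd10 (0.60), Aldh1a1 (0.58), Prom1 (0.50) and Dpp4 (0.50), over 96 cells and 85 assays ranked. In the 80 cells at places 1 to 10 the same r was 0.05 for Pax2, 0.22 for Fzd10, 0.02 for Aldh1a1, 0.05 for Prom1 and 0.27 for Dpp4. With the place as a further term over all 96 cells, Pax2 (0.49) and Fzd10 (0.49) remained the highest.

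Counts of cells show how these differences stood at places 1 to 10. Pax2, a transcription factor of the Müllerian duct, was found in 16 of 20 Lgr5 cells (80.0%) and 27 of 76 others (35.5%), but at places 1 to 10 in 4 of 8 against 26 of 72. Aldh1a1, an enzyme of retinoic acid synthesis whose assay the file names only as aldh1, was found in 9 of 20 (45.0%) against 5 of 76 (6.58%), and at places 1 to 10 in 1 of 8 against 4 of 72. Prom1, a surface protein used as a stem cell marker, was 44.7 points more frequent in Lgr5 cells and 19.4 points at places 1 to 10. Dpp4, a surface peptidase, was 42.6 points more frequent and 30.6 points at places 1 to 10. Emx2, another duct regulator, was 42.1 and 18.1 points more frequent. Within places 11 and 12, Pax2 was found in 12 of 12 Lgr5 cells against 1 of 4 others, and Prom1 in 11 of 12 against 1 of 4. Aldh1a1 was found there in 8 of 12 against 1 of 4, Emx2 in 11 of 12 against 2 of 4, and Dpp4 in 9 of 12 against 3 of 4.

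The transcription factor Sox9, known from gland progenitors, kept its difference at places 1 to 10. It was found in 14 of 20 Lgr5 cells (70.0%) and 24 of 76 others (31.6%), and at places 1 to 10 in 6 of 8 against 22 of 72, a difference of 44.4 points. At places 11 and 12 Sox9 was found in 8 of 12 against 2 of 4, a difference of 16.7 points. Of the 38 Sox9 values, 15 lay above a Ct of 24, and the highest was 27.82, near the limit of 28. In all, 19 assays were at least 20 points more frequent in Lgr5 cells, and 10 of these 19 were so at places 1 to 10 too. At places 1 to 10, 13 of 93 assays (14.0%) passed this step upward and 5 (5.38%) downward. Those values rest on 8 Lgr5 cells.

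Among the 5 gland genes (Foxa2, Sox9, Aldh1a1, Cdh1 and Wnt7a), 3 were at least 20 points more frequent in Lgr5 cells, beside 19 of all 93 assays (20.4%). The median over the 5 was 32.6 points against 5.53 over all assays. Of those 3, Sox9 alone exceeded 20 points at places 1 to 10. Foxa2, a transcription factor of differentiated glands, was found in 0 of 20 Lgr5 cells and 7 of 76 others. Every Lgr5 cell had the epithelial transcripts Epcam and Cdh1 (20 of 20 each), against 54 and 65 of 76 others, and at places 1 to 10 Epcam was found in 8 of 8 against 52 of 72. The 6 epithelial markers measured were these, Krt8, Krt18, Krt19 and Cd24a. Just 1 of the 6 (Epcam) was at least 20 points more frequent in Lgr5 cells, beside 20.4% of all assays. Their median was 9.21 points against 5.53. Krt8 was no more frequent, with 18 of 20 against 69 of 76.

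The most negative differences by Lgr5 status, beside that of Fzd9, were those of Tbx3 (1 of 20 against 21 of 76), Itga5 (6 against 39), Kit (14 against 67) and Eng (0 against 13). Kit and Itga5 changed direction with the place. Kit, a receptor tyrosine kinase, was 18.2 points less frequent in all cells but 12.5 points more frequent at places 1 to 10, and the integrin subunit Itga5 was 21.3 points less and 12.5 points more frequent. Of the 17 adult stem cell genes, 5 were at least 20 points more frequent in Lgr5 cells, where 19 of all 93 assays (20.4%) were, with a median of 11.8 points against 5.53 over all assays and with Prom1, Sox9 and Aldh1a1 highest and Kit lowest.

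The largest differences by Lgr6 status were those of Cd34, Cd200, Tdgf1, Enpep and Nanog, and they were of like size at places 1 to 10 except for a smaller one of Cd34. Cd34, a surface sialomucin of endothelium and of several progenitor cells, was found in 40 of 57 Lgr6 cells (70.2%, interval 56.6% to 81.6%) and in 9 of 39 others (23.1%, 11.1% to 39.3%), a difference of 47.1 points. At places 1 to 10 it was found in 31 of 46 against 9 of 34, and at places 11 and 12 in 9 of 11 against 0 of 5. Cd200 (45.1 points), Tdgf1 (44.1), Enpep (44.0) and Nanog (35.8) followed, and at places 1 to 10 their differences were 48.0, 48.0, 44.4 and 39.0 points. As background, 25 of 93 assays (26.9%) were at least 20 points more frequent in Lgr6 cells and none less frequent, and all 25 were so at places 1 to 10, where 29 (31.2%) passed.

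The number of assays per cell moved with Lgr6. At places 1 to 10 the Lgr6 cells had a median of 53 other assays and the cells without Lgr6 had 43. Within the Lgr4 cells, whose depth is more alike, 9 of 93 assays (9.68%) were at least 20 points more frequent with Lgr6. There the differences were 41.6 points for Cd34, 32.7 for Tdgf1, 32.5 for Cd200, 28.9 for Enpep and 18.3 for Nanog. The same 5 transcripts were also more frequent in cells with Lgr4 than without, by 44.0 to 59.0 points, and Cd200 was 21.6 points more frequent in Lgr5 cells. After the fit on the number of assays, the highest correlations with the Lgr6 level were Cd34 (r 0.48), Dppa2 (0.47), Cd200 (0.41), Enpep (0.40) and Nanog (0.37), and at places 1 to 10 they were 0.42, 0.46, 0.43, 0.39 and 0.40. Epcam was no more frequent in Lgr6 cells, with 43 of 57 (75.4%) against 31 of 39 (79.5%). Of the 6 epithelial markers measured, 5 were more frequent in Lgr6 cells and 1, Epcam, less frequent. None of the 6 reached 20 points, beside 26.9% of all assays, and their median was 9.72 points against 10.9. Of the 5 gland genes none passed the step with Lgr6, and of the 17 stem cell genes 4 did (Alcam, Cd44 and Krt15 highest), a share no higher than the 26.9% over all assays.

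Markers of other cell types were compared in the same way. Of 10 endothelial, stromal, smooth muscle and immune markers measured, 4 (Cd34, Ptprc, Nt5e and Mme) were at least 20 points more frequent in Lgr6 cells and 0 in Lgr5 cells, beside 26.9% and 20.4% of all assays. Within the Lgr4 cells 2 of the 10 passed with Lgr6 (Cd34 and Ptprc), beside 9.68% of all assays in that comparison. There Nt5e differed by 6.11 points and Mme by 10.8. Over all cells, the summed level of the 10 markers ran from 22.1 through a median of 49.8 to 81.1 cycles in Lgr6 cells. It ran from 0 through 36.6 to 67.0 in the others. Within the Lgr4 cells the gap was smaller. There the summed level ran from 27.8 through 50.4 to 81.1 with Lgr6 and from 18.7 through 48.3 to 67.0 without. By Lgr5 status over all cells, it ran from 19.6 through 46.0 to 75.6 with Lgr5, against 0, 47.4 and 81.1 without. Of the 10 markers, 4 were more frequent and 6 less frequent in Lgr5 cells. Eng and Vim were at 0 in all 20, while Thy1 was found in 30.0% against 14.5% and Nt5e in 95.0% against 84.2%. Pecam1, an endothelial marker, was found in 57 of 57 Lgr6 cells and 36 of 39 others, so that this assay does not set apart a class of cells here. The part of such cells in the Lgr6 differences was not tested.

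Cells with Lgr4 and Lgr5 but not Lgr6 (10 cells) were set against cells with Lgr4 and Lgr6 but not Lgr5 (44 cells), a comparison added after the data were seen. Their median numbers of other assays were close, 55 and 53. Cd34 was found in 1 of 10 against 32 of 44, Fzd9 in 0 of 10 against 21 of 44, and Fzd10 in 7 of 10 against 11 of 44. Of 93 assays, 15 (16.1%) were at least 20 points more frequent in the first class and 12 (12.9%) in the second. Places 11 and 12 held 5 of the 10 but 4 of the 44.

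**Figure D5:**
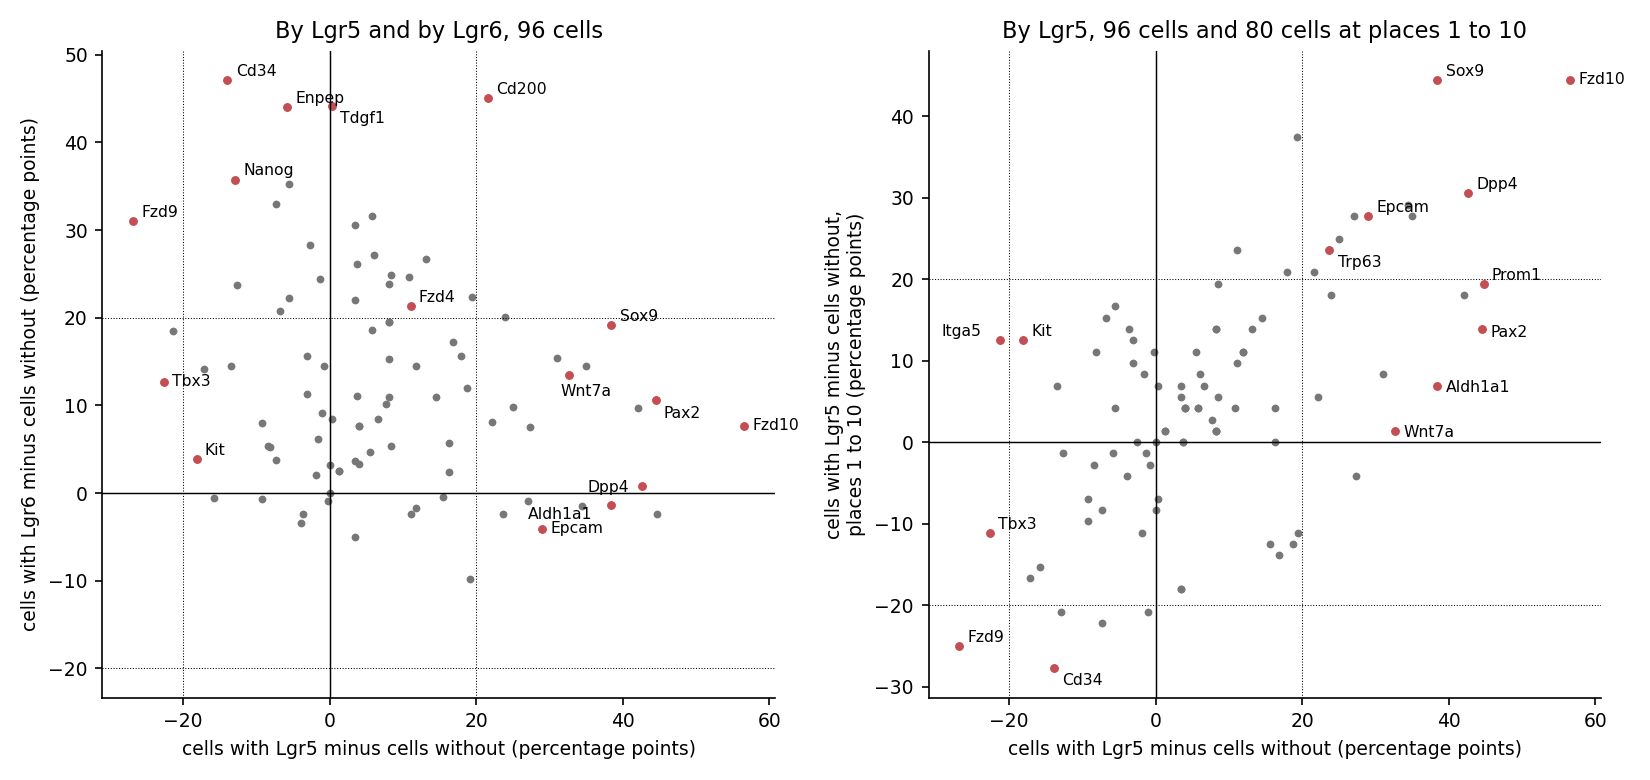
Each point is 1 of the 93 other assays. Left, difference of share by Lgr5 status against difference by Lgr6 status in 96 cells (percentage points). Right, difference by Lgr5 status in 96 cells against the same in the 80 cells at places 1 to 10. Dotted lines mark 20 points. Fzd10 and Sox9 stay at 44.4 points on the right, while Pax2, Aldh1a1 and Wnt7a lie at 13.9, 6.94 and 1.39.

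Lgr4 status went with the number of assays found in a cell. Of the 93 assays, 54 (58.1%) were at least 20 points more frequent in the 78 Lgr4 cells than in the 18 others and none less frequent. The cells without Lgr4 had a median of 28.5 other assays, against 53.0. The largest differences were those of the peptidase Enpep (59.0 points), Igf2r (52.6), Ezh2 (52.1), Nt5e (51.7) and Itgb1 (50.4). All 8 WNT genes were more frequent with Lgr4, as were 89 of all 93 assays. At least 20 points were reached by 6 of the 8, beside 58.1% of all assays. The median over the 8 was 32.3 points against 26.5 over all assays. Among the 48 cells with the lower Gapdh Ct just 2 cells lacked Lgr4, so differences there describe those 2 cells and nothing is read from them. Alcam had the highest correlation with the Lgr4 level after the fit (r 0.38), followed by Lgr5 (0.36), Mki67 (0.31), Cd200 (0.29) and Pax2 (0.26), and at places 1 to 10 the values were 0.31, 0.10, 0.17, 0.19 and -0.02.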

How the data were processed

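The data are a deposited table of raw Ct values (unit of cycles, 40 where none was recorded, per the file headers and values) and a table of fold ratios that the authors computed against 1 cell after normalization to a reference gene, per the file headers. Recomputing the ratio from Gapdh and cell 1 gave the deposited values within 6.55e-06 on the log2 scale. How Ct was called is not stated in the labels or headers. Ct values below 28 were called detected. The level is 28 minus Ct. Shares have exact intervals and differences of shares have Newcombe intervals. Assays were named where they differed most or least by receptor status (5 each way). Others correlated best with a receptor after the fit on assay number (5 each, among assays in at least 10% of cells). Members of the WNT and gland lists were named too, with 4 of the stem cell list. Cdh1, Epcam, the other epithelial markers, Pecam1, Eng, Vim, Ptprc, Mme and Emx2 are named also as markers or beside them. Members and lists were chosen with earlier results of these data known. The division by place in runs of 12 cell numbers, and comparisons within Lgr4 cells, were added after the data were seen. Of the 96 assay names, 53 matched a symbol or synonym of the RefSeq table given, which also supplied the gene identifiers. The others were read from CD designations or protein names by usual usage (p63 as Trp63, er as Esr1, pr as Pgr), or kept as in the file (such as actin and sma), and such assays enter the lists. No 2 cells shared an identical recorded Ct. Scripts were tested on simulated data. Python 3.11.15, numpy 2.4.6, pandas 2.3.3, scipy 1.17.1, statsmodels 0.14.6 and matplotlib 3.10.9 were used. Primer sequences and specificity were not analysed here.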

Additional observations from a re-analysis of the deposited data

How the results depend on the processing

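The 15 main values were recomputed under other limits, filters and scales, which gave 185 alternative values. Of these 146 stayed within the interval, spread or 1.5-fold range of the value reported, 39 moved and 0 reversed. The division by place, added after the data were seen, moved the Lgr5 results most. At places 1 to 10 the share with Lgr5 was 10.0%, with all 3 receptors 2.50%, and the mean Lgr5 level 5.03. At places 11 and 12 the share was 100% for Lgr4, 75.0% for Lgr5, 43.8% for all 3, 0% for exactly 1 and 0% for none, the Lgr5 difference by Lgr6 was -36.4 points and the Lgr4 difference by Lgr6 0.0. Lgr4 was found in 90.5% of cells with all reference genes, 88.6% without low-Gapdh cells and 89.5% without the 10% of cells with the fewest assays, and no receptor in 6.35%, 6.82% and 5.81%. The Lgr4 difference by Lgr6 was 12.3 and 9.52 points under the last 2 filters. Mean levels of Lgr4, Lgr5 and Lgr6 were 4.17, 4.56 and 4.09 with a limit of 24, 6.09 for Lgr6 with 26, -6.87, -7.08 and -6.90 relative to Gapdh and actin, and 12.33, 12.17 and 12.13 as the log2 deposited fold, changes of scale by construction. Assays at least 20 points more frequent numbered 33 for Lgr4 without the shallowest 10% and 26 at the lower Gapdh Ct, where 46 cells stand against 2 and the count is a description of those 2. For Lgr5 they were 34 at 10 points and 11 at 30. For Lgr6 they were 11 under each of the 3 cell filters, 49 at 10 points, 10 at 30, 16 at the lower Gapdh Ct and 9 in Lgr4 cells. Of 660 alternative values for 66 gene differences, 7 reversed. By Lgr4 these were Fzd7 (-6.41 without low-Gapdh cells, -5.19 without the shallowest), Myc (-3.51 with all reference genes) and Cdh1 (-6.49 without the shallowest). By Lgr6 it was Ctnnb1 (-2.04 and -3.57), and by Lgr5 Kit (12.5 at places 1 to 10). Changes of sign were also seen outside these 7. Itga5 by Lgr5 was -21.3 points in all cells and 12.5 at places 1 to 10. Wnt7a by Lgr6 was 13.5 points in all cells, -38.9 at the lower Gapdh Ct (36 cells against 12) and 34.9 at the higher. No paired analysis was possible because the cells form 1 group. Places 11 and 12 hold 4 cells without Lgr5, which limits any comparison there.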

Other observations

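The place in the run of 12 bears on transcripts beyond the receptors. Beside Lgr5, the assays with the largest difference between places 11 and 12 and places 1 to 10 were Dpp4 (12 of 16 against 18 of 80 cells), Aldh1a1 (9 of 16 against 5 of 80), Emx2 (13 of 16 against 27 of 80), Fzd10 (11 of 16 against 18 of 80) and Pax2 (13 of 16 against 30 of 80). These are assays that also differed by Lgr5 status in all 96 cells. Kit was found in 10 of 16 against 71 of 80, and Fzd9 in 2 of 16 against 28 of 80. The 12 Lgr5 cells at places 11 and 12 all had Pax2 and Wnt7a, while 1 of the 4 cells there without Lgr5 had each. No source used here says what the places stand for, and the cause was not tested.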
